A study of Homo sapiens with 9 samples.

Results

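Single-stranded DNA in neutrophil extracellular traps (NETs) was mapped in 1 library by KAS-seq, and the 34247 peaks of that library are described here by the protein-coding genes they fall in. They are all the peaks of the KAS list, of 37375 peaks in the 5 peak lists analysed. A peak was placed by its summit, the base of highest signal, and it was given to each RefSeq protein-coding gene whose body, from first to last base, holds that base. In all 15423 summits, or 45.0% (exact 95% interval 44.5 to 45.6), lay in a protein-coding gene body, 3295 (9.62%) in the body of another kind of gene only, and 15529 (45.3%) in no gene. Of 20046 protein-coding genes, 7136 (35.6%) held at least 1 KAS summit and 688 (3.43%) held at least 5.

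KAS-seq uses N3-kethoxal, a small molecule that enters cells and reacts with guanines whose pairing face is free, so that DNA which is not in a double helix is tagged, coupled to biotin and captured. In living cells the strongest signal of this assay usually lies where RNA polymerase opens the helix, at the starts, along the bodies and past the ends of transcribed genes. NETs are webs of chromatin that neutrophils push out of the cell, coated with granule proteins such as elastase and myeloperoxidase. Guanine-rich strands can fold into G-quadruplexes, which leave the opposite strand unpaired.

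The cells were dHL60, the differentiated, neutrophil-like form of HL-60, an established line from a human promyelocytic leukaemia. All libraries came from NET DNA of such cells after 4 h of induction. For the 4 thrombin pulldowns and the 4 inputs the inducer was 500 nM PMA (phorbol myristate acetate, an activator of protein kinase C), followed by 1 µM biotinylated alpha thrombin for 1 h. For KAS the labels refer to the same induction without repeating a dose, name no thrombin, and give 5 mM N3-Kethoxal for 10 min. There was 1 KAS library, so no value below has a replicate, and intervals cover counting error of peaks only. Pulldown lists held 886, 570, 790 and 882 peaks in replicates 1 to 4; the inputs were not analysed here. Read depth is unknown, because the lists give no library totals.

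Some sequences show what KAS summits at gene starts look like. RefSeq promoter windows, from 250 bases before a gene's start to 50 bases after it, were at hand for 15842 of the protein-coding genes (22198 windows, GRCh38.p14). A KAS summit lay in 125 of these windows, 0.563% of them. The 100 bases printed below, read 5′ to 3′ on the gene's strand, are shown because these 6 windows hold the KAS peaks of highest fold enrichment among promoters; runs of 3 or more G are in capitals. TENT2, a poly(A) polymerase outside the canonical family, is on the + strand at chr5:79612307-79612406. KCND3, a voltage-gated potassium channel, is on the − strand at chr1:111989669-111989768. PLCB3, a phospholipase C, is on the + strand at chr11:64251430-64251529. ADCY3, an adenylyl cyclase, is on the − strand at chr2:24920303-24920402, and MIER2, a corepressor subunit, on the − strand at chr19:344516-344615. LOC105371216 is on the − strand at chr1:144813246-144813345.
TENT2: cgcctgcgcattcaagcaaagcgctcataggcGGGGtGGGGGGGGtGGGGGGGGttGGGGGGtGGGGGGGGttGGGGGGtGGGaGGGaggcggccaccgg
KCND3: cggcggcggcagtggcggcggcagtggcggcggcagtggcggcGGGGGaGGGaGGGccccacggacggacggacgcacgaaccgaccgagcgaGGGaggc
PLCB3: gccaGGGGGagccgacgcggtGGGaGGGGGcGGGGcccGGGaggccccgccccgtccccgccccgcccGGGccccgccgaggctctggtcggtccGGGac
ADCY3: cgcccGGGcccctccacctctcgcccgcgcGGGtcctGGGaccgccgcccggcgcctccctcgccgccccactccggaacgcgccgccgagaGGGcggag
MIER2: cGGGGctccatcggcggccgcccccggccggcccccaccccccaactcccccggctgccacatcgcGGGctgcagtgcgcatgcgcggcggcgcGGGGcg
LOC105371216: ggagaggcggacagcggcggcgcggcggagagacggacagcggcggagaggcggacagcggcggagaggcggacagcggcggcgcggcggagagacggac
The TENT2 stretch carries 8 runs of 3 or more G and 60 G in its 100 bases. KCND3 and PLCB3 carry 4 and 7 such runs. LOC105371216 has 55 G but no such run. MIER2 and ADCY3 are richer in C on the gene's strand, with 48 and 51 C against 36 and 33 G. The summit of PLCB3 lies 8 bases inside the gene, just past the printed stretch. The authors' fold enrichment at these peaks was 7.87 for TENT2 and MIER2, 7.77 for LOC105371216, 7.30 for KCND3 and ADCY3, and 7.15 for PLCB3.

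The same composition held over the promoter windows with a summit. Their median GC content was 80.0%, against 62.3% over all windows. These 125 windows belong to 121 genes. Some of them overlap and share a KAS peak, so intervals over windows count a few peaks more than once. GGG runs, 4 in a row with 1 to 7 bases between them, the usual letters of a possible G-quadruplex, were found on either strand in 76.0% of the 125 windows (exact interval 67.5 to 83.2) and in 30.4% of all windows. Among all 1896 windows whose GC content lay between the quartiles of the windows with a summit, 76.3% and 82.7%, the share with these runs was 71.7% (69.6 to 73.7), inside the interval of the windows with a summit. Of the windows with a summit, 66 were in this GC range, and these are also among the 1896. Their own share with these runs was not counted, so the runs were not compared at like GC content. Of the windows in that GC range 3.48% held a KAS summit, against 0.563% of all windows. The letters ATTCC, the repeat unit of human satellites II and III, occurred on either strand in 12.8% of windows with a summit and 32.5% of all windows, and in 10.7% of the windows of that GC range. That unit with another directly after it occurred in 0 of the 125 windows and in 10 (0.0450%) of all windows.

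Thrombin pulldown peaks lay almost wholly outside protein-coding genes. Pulldown replicates 1 to 4 had 4, 2, 6 and 6 summits in such genes, which is 0.451%, 0.351%, 0.759% and 0.680% of their lists and a mean of 0.561% ± 0.191 (SD, n = 4). The KAS share of 45.0% lay above all 4, by far more than their spread; with 1 KAS library no test between the assays was possible. No protein-coding gene held more than 1 summit in any pulldown list, while up to 52 KAS summits fell in 1 gene. Protein-coding gene bodies cover 40.9% of the chromosomes' extent, unsequenced gaps included, against 45.0% of KAS summits.

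Inside gene bodies the KAS density was 12.2 summits per Mb (12.0 to 12.4). Over the rest of the chromosomes it was 10.3 per Mb (10.2 to 10.5), a ratio of 1.18 (1.16 to 1.21). Unsequenced gaps of the assembly were not taken out of the outside bases. No peak can lie in them, so they lower the outside density and raise this ratio, by an amount not measured. This ratio turned round when the outside was limited to bases within 100 kb of a protein-coding gene. There the density was 14.2 per Mb (14.0 to 14.5), above that inside genes, with a ratio of inside to beside of 0.859. Farther than 100 kb from any protein-coding gene it was 7.12 per Mb (6.96 to 7.29), over bases that include such gaps. KAS density was thus higher within 100 kb of protein-coding genes than farther away. Over all genes pooled it was lower inside genes than beside them, but this order depended on gene length. Genes of 10 to 30 kb were denser than the bases beside them, with a ratio of 1.13. Those of 100 to 300 kb were sparser, with a ratio of 0.784.

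On 23 of 24 chromosomes the density was higher beside genes than inside them, with chromosome 15 the exception at 12.0 per Mb inside and 11.3 beside genes. Chromosome 19, the most gene-dense chromosome, had 42.3 per Mb inside genes and 43.2 beside them. Chromosome 22 had 28.1 and 31.7, and chromosome 5 had 5.89 and 7.21. Chromosome X had the second lowest values, 1.14 inside genes and 1.39 beside them. Between chromosomes 5 and 19 the density inside genes thus spanned a wider range than the gap between inside and beside on any chromosome. Neither copy number nor mappability was measured here, and their part in these differences was not tested.

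**Figure D1:**
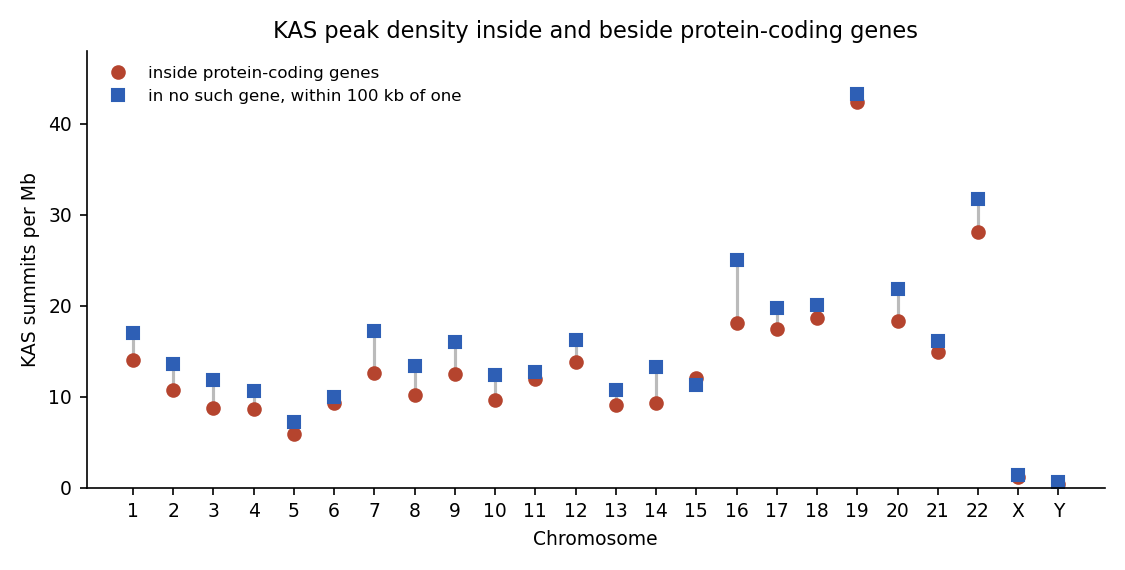
KAS summits per Mb (vertical axis) on each chromosome (horizontal axis), inside protein-coding gene bodies (circles) and in bases of no such gene within 100 kb of one (squares), from the 1 KAS library. The square lies above the circle on every chromosome other than 15, and chromosomes 19 and 22 stand highest in both.

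Strong and wide peaks were rarer inside genes, and summits there lay farther apart. The median fold was 5.42 inside protein-coding genes and 5.47 in no gene, but folds of 10 or more made up 0.908% of peaks inside and 3.07% of those in no gene. Peaks of 1 kb or more in width made up 0.687% and 2.48%. None of the 32 peaks at the highest deposited pileup of 200 was in any gene, but pileups reached 199 in protein-coding and in other genes. Another summit lay within 1 kb for 5.78% of summits inside protein-coding genes and for 12.5% of summits outside them, and the median distance to the nearest summit was 14.8 kb and 10.9 kb.

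Most genes with a summit had only 1. Of all protein-coding genes 12910 (64.4%) held none, 3668 held 1, 1500 held 2, 1280 held 3 to 4, 610 held 5 to 9 and 78 held 10 or more. The last of these groups, 0.389% of genes, carried 6.71% of the assignments of summits to genes on 3.46% of the summed gene length. Only 334 summits, 2.17% of those in genes, fell in more than 1 protein-coding gene and were counted for each. Genes with a summit had a median length of 57.8 kb, against 13.8 kb for those without. Across the 20046 genes of this library the number of summits and gene length had a Spearman rho of 0.515, given as a description.

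**Figure D2:**
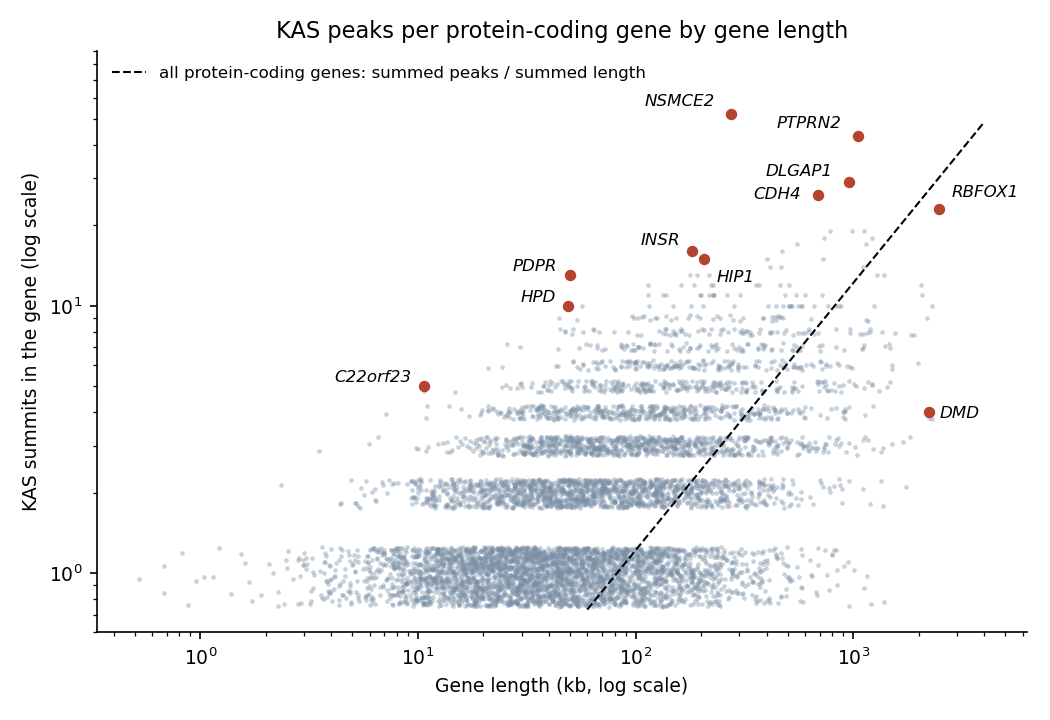
Number of KAS summits in each protein-coding gene (vertical log axis) against gene length in kb (horizontal log axis) for the 7136 genes with a summit; genes with fewer than 10 are spread vertically at random for sight, and genes with 0 are not drawn. The dashed line is the density over all genes, 0.0122 per kb; NSMCE2 with 52 summits stands far above it, and DMD with 4 far below it.

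Per base, long genes held fewer KAS peaks than short ones. The share of genes with a summit went from 6.75% of genes under 10 kb through 29.3% at 10 to 30 kb, 50.7% at 30 to 100 kb, 66.9% at 100 to 300 kb and 79.8% at 300 to 1000 kb to 97.1% of the 69 genes over 1000 kb. The density took the other direction beyond 30 kb. It was 16.5 per Mb (15.0 to 18.1) in genes under 10 kb and highest in genes of 10 to 30 kb, at 22.0 (21.1 to 22.9). It was then 17.8 (17.3 to 18.3), 11.5 (11.1 to 11.8) and 6.91 (6.63 to 7.19) in the next 3 classes and 4.92 (4.48 to 5.38) in genes over 1000 kb. Genes of 10 to 30 kb thus had 4.48 times (4.05 to 4.95) the density of genes over 1000 kb, and 3.85 times without chromosomes 19 and X.

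The surroundings of these genes followed the same order. Bases in no protein-coding gene within 100 kb of genes of 10 to 30 kb had 19.5 summits per Mb, and those beside genes over 1000 kb had 5.76. Set against their own surroundings, genes of 10 to 30 kb were denser, with a ratio of 1.13 (1.07 to 1.18). Genes of 100 to 300 kb and of 300 to 1000 kb were sparser, with ratios of 0.784 (0.752 to 0.818) and 0.772 (0.714 to 0.835). The intervals of the ratios in the other 3 classes included 1.

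**Figure D3:**
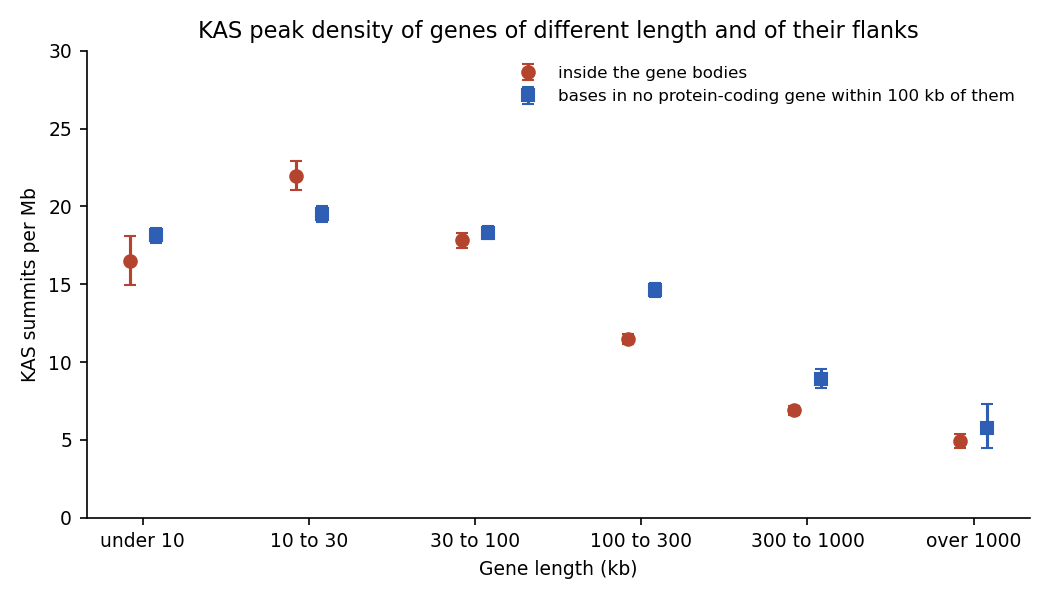
KAS summits per Mb (vertical axis) by gene length class in kb (horizontal axis), inside the gene bodies (circles) and in bases of no protein-coding gene within 100 kb of the same genes (squares); bars are exact 95% Poisson intervals. Both series peak at 10 to 30 kb, at 22.0 and 19.5, and are lowest over 1000 kb, at 4.92 and 5.76.

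For 3351 genes of 100 kb or longer, the density inside and that of the bases of no protein-coding gene within 1 Mb had a Spearman rho of 0.562 across genes (0.532 for 3178 genes without chromosomes 19 and X); neighbouring genes share these bases. These genes were put in 4 groups of equal size by how dense their surroundings were. In the group with the sparsest surroundings 55.5% held no summit. In the next groups 33.2% and 21.0% held none, and in that with the densest surroundings 8.95%. The median density inside was 0, 5.16, 9.04 and 18.0 per Mb in that order.

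The gene with most KAS summits was NSMCE2, which encodes a SUMO ligase of the SMC5/6 complex that helps repair and untangle chromosomes. It lies at chr8:125091860-125367120 and held 52 summits in 275 kb, 189 per Mb (141 to 248) and 18.5 times the density over the genes of chromosome 8. Its peaks were not spread over the gene. From the end of lower coordinate, 1 summit lay within the first 8.91 kb, the next 113 kb held none, and the last 153 kb held the other 51, at 332 per Mb. The peaks also changed in kind across this gap. The single peak below it had a pileup of 10 and a fold of 5.70, while the 51 above it had pileups of 20 to 43, with a median of 28, and folds of 2.35 to 5.27. The first place of NSMCE2 rested on peaks of low fold: among the 50% of peaks of higher fold it held 1 summit, while PTPRN2 held 23, CDH4 16, RBFOX1 9 and DLGAP1 6.

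The step continued outside the gene. In bases of no protein-coding gene within 1 Mb below NSMCE2, 8 summits (14.5 per Mb) had pileups of 8 to 13. Within 1 Mb above it, 118 summits (119 per Mb) had a median pileup of 31, and 114 of them reached 20. Over all protein-coding genes 2.81% of peaks reached a pileup of 20, and over all KAS peaks, in genes or not, 8.75% did. On the lower side WASHC5, SQLE and ZNF572, the nearest genes, held 0 summits, MTSS1 held 4 in 178 kb, TATDN1 held 2 and NDUFB9 held 1. TRIB1, the gene above, held 0 in 8.05 kb. HL-60 is known to carry extra copies of a stretch of this chromosome arm; copy number was not measured here, and its part in the high pileups and in the number of peaks was not tested.

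PTPRN2, DLGAP1 and CDH4 came next by number. PTPRN2, a phosphatase-like receptor of secretory granules in neuroendocrine cells, is at chr7:157539056-158587823 and held 43 summits in 1049 kb, 41.0 per Mb (29.7 to 55.2). Its strongest peak had a fold of 14.5, and 14 of its summits lay in a stretch of 105 kb. The bases beside it, near the end of the chromosome, had 33.9 per Mb (21.9 to 50.0), a value within the interval of the gene. CDH4, a cadherin of cell adhesion, at chr20:61252261-61940617, held 26 summits at 37.8 per Mb (24.7 to 55.3), with folds of up to 11.8 and 16.8 per Mb beside it. DLGAP1, a scaffold of the postsynaptic density, at chr18:3496032-4455307, held 29 at 30.2 per Mb (20.2 to 43.4), against 20.4 beside it. In DLGAP1 23 of the 29 lay below a gap of 146 kb, which is toward the end of the gene, since it is read from the − strand.

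Leaders by number differed in density per base. Of the 20 genes with most summits, 18 were denser than the genes of their chromosome as a whole. Their choice by number of summits tilts this count upward. RBFOX1, a splicing regulator of neurons and muscle, at chr16:5239721-7713340, held 23 summits over 2474 kb, 9.30 per Mb (5.89 to 14.0), with 8.77 beside it. This was below the 18.1 over the genes of chromosome 16 and above the 4.92 of all genes over 1000 kb. SHANK2, a scaffold of excitatory synapses, and CAMTA1, a calmodulin-binding transcription activator, held 19 each at 24.2 and 19.3 per Mb. The genes of their chromosomes had 11.9 and 14.1 per Mb. RANBP2, a nuclear pore protein, also held 19. The table gives RANBP2 a span of 1123 kb that includes the whole of SH3RF3, so its count is that of a span with other genes in it.

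**Figure D4:**
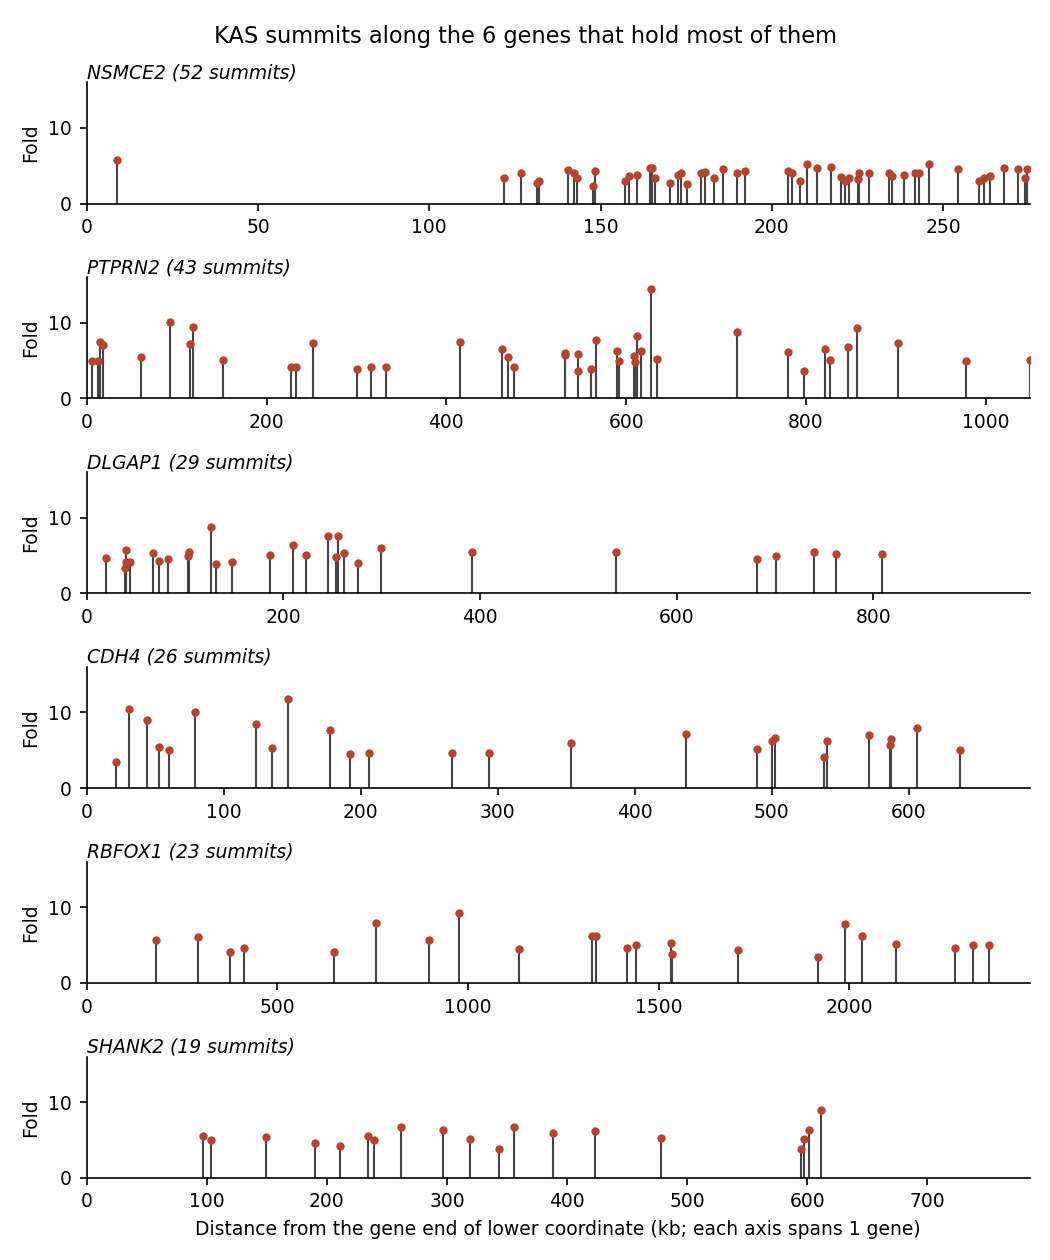
Position of each KAS summit (horizontal axis, kb from the gene end of lower coordinate, each panel spanning 1 gene) and the authors' fold enrichment of its peak (vertical axis) in the 6 genes with most summits. In NSMCE2 51 of 52 summits lie beyond the gap of 113 kb and none exceeds a fold of 5.70; PTPRN2 and CDH4 reach 14.5 and 11.8.

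The next genes by count were of mixed function. TRAPPC9, a subunit of a vesicle-tethering complex, and KAZN, a protein of cell junctions, held 18 each, and SORCS2, a sorting receptor, and DPP6, a partner of potassium channels, 17 each. INSR, the insulin receptor, and PDZD2 held 16 each. HIP1, an adaptor of clathrin-coated vesicles, MACF1, a linker of microtubules and actin, and CALN1, a calcium-binding protein, held 15 each. STAG1, a cohesin subunit, and the homeobox factors CUX1 and ZFHX3 held 14 each.

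Of the 20 leading genes, 14 were denser than the bases of no gene within 1 Mb of them. The genes were chosen for their summits, which tilts this count and the values that follow upward, so they are a description only. The intervals inside and beside did not overlap for NSMCE2, STAG1 and PDZD2. NSMCE2 had 81.6 per Mb (67.9 to 97.1) beside it. STAG1 had 33.6 per Mb (18.4 to 56.4) inside and 5.29 (2.29 to 10.4) beside it, and PDZD2 33.9 (19.4 to 55.1) and 8.79 (4.54 to 15.4). INSR, at 87.8 per Mb (50.2 to 143), and HIP1, at 72.9 (40.8 to 120), sat in dense surroundings of 68.8 and 38.0 per Mb, with intervals that overlapped. The 6 genes sparser than their surroundings were CAMTA1, KAZN, DPP6, CALN1, CUX1 and ZFHX3; CUX1 had 29.9 per Mb inside against 56.4 beside it.

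Ranked by density among genes of at least 10 kb with at least 5 summits, other genes led, and 7 of the first 15 were on chromosome 19. That chromosome holds 1451 of the 20046 protein-coding genes and had 42.3 summits per Mb inside genes, against 12.2 over all chromosomes. Its share of the genes that pass both limits was not counted, so the 7 may only restate its density. C22orf23 held 5 summits in 10.6 kb, 0.471 per kb (0.153 to 1.10). STAP2, a signalling adaptor, held 5 in 14.8 kb, 0.338 per kb. PHYHD1, a dioxygenase, held 6 at 0.285 per kb, and MARCHF2, a membrane-bound ubiquitin ligase, 7 at 0.272. PDPR, the regulatory subunit of pyruvate dehydrogenase phosphatase, held 13 at 0.261; it has a near-identical copy, so reads of the 2 cannot be told apart with certainty and its count is uncertain.

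The rest of that ranking ran from 0.247 per kb down to 0.176. It included HPD, an enzyme of tyrosine breakdown, with 10 summits. MYO1F, a myosin of myeloid cells, held 10, and PRPSAP1, a partner of phosphoribosyl pyrophosphate synthetases, 8. PLIN3, a coat protein of lipid droplets, held 7, PRELID3A 6, and C14orf93, ZBTB45 and SPPL2B 5 each. NSMCE2, at 0.189 per kb, was the only gene in both rankings. With so few summits the intervals were wide: for STAP2 from 0.110 to 0.789.

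Some very long genes held no KAS summit. PDE4D, a cyclic AMP phosphodiesterase, was the longest, with 0 in 1553 kb. Its interval reached up to 2.38 per Mb, against 5.89 per Mb over the genes of its chromosome. LINGO2, a membrane protein of neurons, had 0 in 1276 kb, RAD51B, a recombination protein, 0 in 863 kb, and KIAA1217 0 in 853 kb. Nor did DIAPH2 and TENM1, both on chromosome X, or SNTG1 and RGS6 hold any. Beside LINGO2, RAD51B, KIAA1217 and RGS6 there was no summit in the bases of no gene within 1 Mb, and beside PDE4D there was 1. For RAD51B and RGS6 these bases summed to only 0.392 and 0.476 Mb, with intervals of up to 9.42 and 7.75 per Mb. The genes of their chromosome had 9.29 per Mb, so sparse surroundings are not shown for RAD51B and only weakly for RGS6. PDE1C, another phosphodiesterase, had 0 summits in 811 kb, with an interval of up to 4.55 per Mb. It differed in having 11 beside it, at 10.2 per Mb (5.11 to 18.3).

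On 12 of 24 chromosomes the gene with most summits was among the 20 leading genes. Others were EHMT1 (13) on chromosome 9, CPEB3 (13) on 10, ERC1 (12) on 12, PCCA (9) on 13, FOXN3 (12) on 14, ZNF609 (11) on 15, TAOK1 (12) on 17, TRPM2 (8) on 21 and MRTFA (12) on 22. TAOK1, a stress-activated kinase, had 74.3 per Mb and TRPM2, a calcium channel of immune cells, 86.5. DMD, the dystrophin gene, led chromosome X with 4 summits in 2220 kb, 1.80 per Mb (0.491 to 4.61).

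Gene groups are given by how many members held a summit, beside 35.6% of all protein-coding genes, and by density, beside that of all genes of the same length classes. Of 22 neutrophil granule and NADPH oxidase genes 9 held a summit, but these were only 11 summits. Their density was 31.7 per Mb (15.8 to 56.8) against 18.5, within the interval. BPI, a bactericidal granule protein, held 3, and AZU1, LYZ and MMP9 held 1 each. Of 24 myeloid transcription factor genes 11 held a summit, at 10.6 per Mb (6.81 to 15.8) against 11.6; ERG held 6, ETV6 3, and SPI1 and IKZF1 2 each.

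Genes of protein kinase C and phorbol ester targets had more summits per Mb than all genes of their lengths. Of 22 such genes 17 held a summit, at 13.2 per Mb (10.2 to 16.8) against 8.99. The kinase genes PRKCA, PRKCB, PRKCZ and PRKCH held 10, 7, 6 and 6. Chromatin and histone modifying enzymes stood higher, with a summit in 24 of 30 genes and 20.4 per Mb (17.0 to 24.3) against 9.71. Among them the methyltransferase genes EHMT1, PRDM16 and KMT2C held 13, 12 and 9, and the demethylase gene KDM2B held 9. The median gene lengths of these lists were 162 kb and 136 kb, and 66.9% of all genes of 100 to 300 kb held a summit. Surroundings were not compared for either list, and both were written with earlier results of these data known.

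Common fragile site genes and neuronal genes nearly all held a summit, as did 97.1% of all genes over 1000 kb. Per base the interval of the fragile site genes ended just below the value of all genes of their lengths, while that of the neuronal genes included it. Both intervals included the 4.92 per Mb of all genes over 1000 kb, and surroundings were not compared for either list. In the first group 21 of 24 held a summit, at 4.39 per Mb (3.69 to 5.18) against 5.34, with 12 summits in MACROD2, 11 in CSMD1 and 10 in CNTNAP2. Of 38 neuronal adhesion and synapse genes 37 did, at 4.88 per Mb (4.24 to 5.59) against 5.42. RBFOX1, DPP6, TENM2 and RBFOX3 led these with 23, 17, 13 and 10. Their high counts went with median lengths of 1375 kb and 1139 kb.

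Groups of short genes had densities whose intervals included that of all genes of their lengths. Of 20 housekeeping genes 2 did, the transferrin receptor gene TFRC with 2 summits and YWHAZ with 1, at 9.09 per Mb (1.87 to 26.6) against 18.6. Of 86 ribosomal protein genes 5 held a summit, at 11.5 per Mb (4.63 to 23.7) against 18.8, with 3 in RPL6. None of 76 replication-dependent histone genes held one, but they sum to only 0.136 Mb, and the interval of up to 27.1 per Mb includes the 19.3 of all genes so short.

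Clustered gene families overlap in part, so their members can share summits. Of 390 olfactory receptor genes, which serve smell, 13 held a summit, and some of these genes overlap. Counted once each, 12 summits lay in them, at 4.21 per Mb (2.17 to 7.35), below the 16.9 of genes of their lengths. Of 53 protocadherin cluster genes, which overlap widely, 16 held a summit, but these were only 2 distinct summits, at 4.22 per Mb (0.511 to 15.2), an interval that included the 12.2 of genes of their lengths. Zinc finger genes with a ZNF symbol, 189 of 510 with a summit, had 15.4 per Mb (13.7 to 17.1) against 15.6. ZNF609 and ZNF536 held 11 each and ZNF407 9.

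Along the gene, summits thinned out at the end. The strand was taken from the promoter windows for 5727 of the genes with a summit (80.3%), and each gene was divided into 10 equal parts. The first part held 11.4% of 12650 summits (10.9 to 12.0) and the last 7.90% (7.43 to 8.38), with 9.46% to 11.4% in the parts between.

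The drop was sharp and close to the gene end. In 8941 genes of 20 kb or longer with a strand, the last kb held 33 summits, 3.69 per Mb, against 15.0 per Mb over the 9 kb before it, a ratio of 0.246 (0.168 to 0.347). The last 250 bases held 3 summits, 1.34 per Mb (0.277 to 3.92). The first 250 bases past the end had 9.39 per Mb (5.82 to 14.4), and from 500 to 750 bases past it the density was 17.0 (12.0 to 23.3). The ratio was between 0.179 and 0.346 in genes of 50 kb or longer, for the 50% of peaks of higher fold, by the centre base of the peak, without chromosome 19, and without genes whose last kb lies in another gene. Base composition and mappability of gene ends were not measured, and their part was not tested.

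At gene starts the change was small. The first kb had 22.0 summits per Mb (19.1 to 25.3) and the 9 kb after it 18.1, a ratio of 1.21 (1.04 to 1.41). It was 1.57 (1.29 to 1.91) in genes of 50 kb or longer, and 1.18 with an interval that included 1 (0.938 to 1.48) for the 50% of peaks of higher fold. The first 250 bases inside the gene had 27.7 per Mb (21.3 to 35.6), and the bases from 500 to 250 before the start had 8.95 (5.47 to 13.8), the lowest of the steps within 3 kb of the start. Expression was not measured here, so active genes were not told apart from silent ones, and the label of the library was not checked by them.

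**Figure D5:**
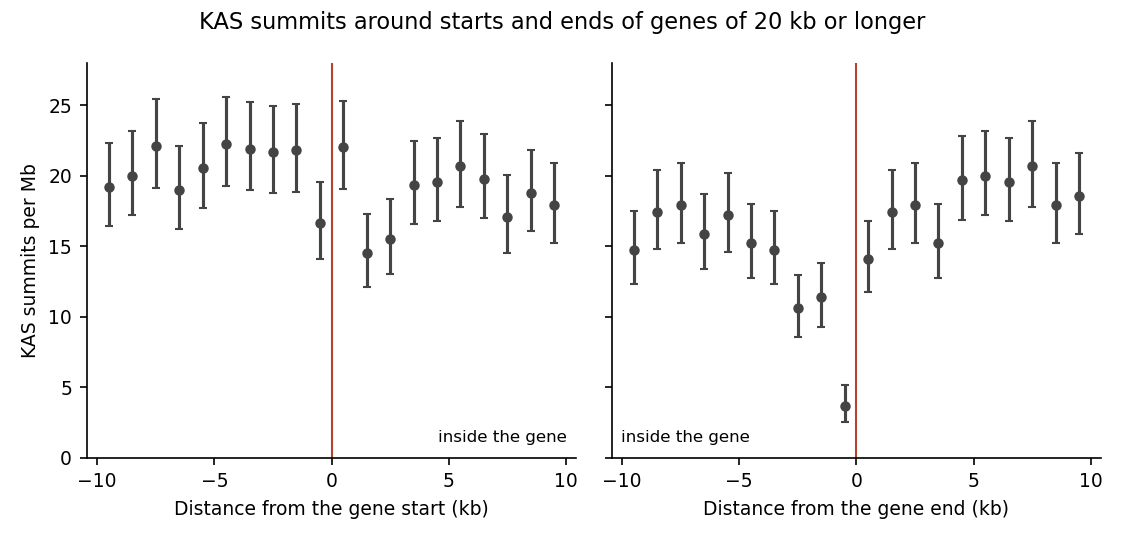
KAS summits per Mb (vertical axis) in steps of 1 kb around the starts (left) and ends (right) of 8941 genes of 20 kb or longer (horizontal axis, kb, negative before the start or end); bars are exact 95% Poisson intervals. The last kb of the gene, at 3.69, lies below all other steps, and the first kb, at 22.0, lies near the level of the steps upstream.

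Few KAS peaks inside protein-coding genes coincided with thrombin pulldown peaks. Only 18 of 3128 pulldown summits lay in such genes, so this share had to be low. Of 15423 such KAS peaks 9 (0.0584%, 0.0267 to 0.111) shared a base with a peak of any pulldown list, against 692 of 15529 (4.46%, 4.14 to 4.79) in no gene. The place common to all 4 pulldowns was in the RANBP2 span and in SH3RF3, a ubiquitin ligase gene, at chr2:109199340-109199940, where the KAS fold was 4.66 and the pulldown folds were 2.81, 1.77, 2.50 and 2.24 in replicates 1 to 4. FOXN3, a forkhead repressor, had the strongest of these KAS peaks, at 10.9, and 1 pulldown list had a peak there. The others were in PRKCA (KAS fold 7.78), EXD3 (5.51), RTEL1, a helicase gene (4.90), PCSK5 (4.48) and DCC (4.43), and in the mitochondrial genes ND6 and ND4, with folds of 2.45 and 2.18.

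Counted from the pulldown side, 18 of 3128 summits lay in 13 protein-coding genes, and 11 of these genes also held a KAS summit. Of all protein-coding genes 35.6% did, but most of the nuclear genes among the 13 are longer than 300 kb. Of all genes of 300 to 1000 kb 79.8% held a KAS summit, and of those over 1000 kb 97.1%, so this count shows no link between the assays. RTEL1 had the highest pulldown fold, 9.74 in replicate 3 and 7.36 in replicate 4, and EXD3 had 7.96 in replicate 4. The pulldown peaks in FOXN3, PRKCA, DCC, the RANBP2 span, RTEL1, PCSK5, EXD3 and ND5 each shared bases with a KAS peak. Those in COX1 and COX3 shared none. Nor did those in NALF1 and ZFPM2, each in 1 list, although these genes held KAS summits elsewhere. COX1, COX3 and ND5, mitochondrial genes, had pulldown summits in replicate 1 only.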

How the data were processed

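Peak lists of 1 KAS library and 4 thrombin pulldown libraries were used; the 4 inputs were not analysed here. Groups and replicate numbers came from the labels, which do not say that replicates were separate cultures. Per the submitters' processing notes, reads were handled with tools that include MACS2 (2.2.7.1), BWA, Picard (2.27.4), bedtools (2.30.0) and SAMtools (1.6) on GRCh38.p13; roles, settings and whether inputs served as controls are not given in the sources used here. The authors' pileup is the signal height at a summit, without scaling across libraries. Of the deposited significance columns, −log10 p was not used, and −log10 q had a minimum of 2.00 in the KAS list. The fold enrichment, a ratio to the peak caller's background deposited by the authors, was used only to rank, filter and describe peaks within a list. KAS peak numbers ran from 1951 to 36197 without gaps. Peaks of lower numbers, if there were any, were not analysed here, and no share or count covers them.

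Summits were assigned to 20046 placed protein-coding genes of a RefSeq table (GRCh38.p14, same chromosome coordinates). The table has no strand; promoter windows gave it for 79.0% of genes, none on chromosome 8. Chromosome extent was the last gene or peak end, and unsequenced gaps were not taken out. Shares carry exact Clopper-Pearson and densities exact Poisson 95% intervals, for counting error only; nothing was tested. A gene list's expected density is that of all genes in the same length classes, weighted by the members' lengths; for olfactory receptor and protocadherin genes distinct summits over the union of the gene bodies were counted. Named genes were the 20 with most summits, the 15 with most per kb (at least 10 kb and 5 summits), the 10 longest without any, up to 4 per list, those with a pulldown summit, up to 6 promoters by fold and the leader of each chromosome. A few genes that this rule names are not reported here. NSMCE2's neighbours and the pileup on either side of its gap were examined after its values were seen. The genes, lists and measures were chosen with earlier results of these data known. Scripts ran in Python 3.11.15 (SciPy 1.17.1, pandas 2.3.3, NumPy 2.4.6), with the counts tested on simulated data; bedtools 2.31.1 gave the same 15423 summits and 7136 genes.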

Additional observations from a re-analysis of the deposited data

How the results depend on the processing

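The share of KAS summits in protein-coding genes was 43.9% for the 50% of peaks of higher fold, 46.1% with summits within 1 kb counted as 1, 43.6% without the outer 1 kb of genes, 46.6% with 1 kb added and 44.5% without peaks in more than 1 gene. The ratio of density inside to outside was 1.13, 1.24, 1.21 and 1.16 for higher fold, close summits, 1 kb added and peaks in more than 1 gene, 1.15 without chromosomes X, Y and the mitochondrial genome, and 0.859, the other direction, against the 100 kb beside genes. With the 50% of peaks of higher fold, 4675 genes held a summit and 5 held 10 or more, against 78; fewer peaks enter. NSMCE2 then kept 1 summit. Of 100 recounts of the 20 leading genes 81 stayed within 1.5 times and 19 did not, all 19 with the higher folds. A minimum of 50 kb kept 2 of the 15 genes ranked by density. Of 12 gene lists 7 exceeded all genes by share with a summit, 4 by summits per Mb and 4 by median per kb. The first-kb ratio was 1.57 in genes of 50 kb or longer, and the ratio of short to long genes 3.85 without chromosomes 19 and X. The mean pulldown share was 0.494% to 0.630% without each replicate in turn. Alternatives with the 100 kb beside genes, gene ends, gene starts, and chromosomes 8, 19 and X left out were chosen after seeing the data. No paired analysis was possible because there was 1 KAS list and no result comes from a test. Depth is unknown, so genes without a summit may lie under the detection limit.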
